A study of Mus musculus with 6 samples.

Results

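The Hox genes encode the homeodomain transcription factors that set position along the body axis, and they are described here in colon tumours of mice. Members were all probe sets whose single gene symbol was Hoxa, Hoxb, Hoxc or Hoxd followed by a paralogue number, with no minimum level. The array reads a transcript with a set of short probes, called a probe set, and some genes have several. The rule found 48 probe sets for 33 Hox genes, among 45101 probe sets in all and 18194 genes with a probe set of their own. RefSeq lists 39 mouse Hox genes, and 6 of them had no probe set of their own and were not analysed here.

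Total RNA was hybridised to 6 Affymetrix arrays, 1 sample per array. The IL8 transgenic group held 3 mice with a transgene for human IL8, a chemokine that attracts neutrophils, and the control group held 3 wild-type mice. Both groups were CBA/C57BL/6 and both tissues were labelled as colon cancer tumours. The word control also stands in the source label of the transgenic samples, which were grouped by title. The sources used here do not give the promoter of the transgene, the age of the mice, how the tumours arose or where along the colon they lay. The design text counts 3 mice per group, but the labels do not state how many tumours an array held, so each p-value reflects only the spread between arrays, which may be partly technical.

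The labels give all 6 animals as male, and the arrays go against that label in 1 group. Xist, the RNA of the inactive X chromosome, was at 12.89, 12.27 and 12.78 on IL8 arrays 1 to 3, against 2.33, 2.64 and 2.44 on control arrays 1 to 3 (log2 values). Eif2s3y, Kdm5d and Uty, all on the Y chromosome, were at 2.71 or less on every IL8 array and at 5.48 or more on every control array. Genotype and this sex pattern cannot be told apart in any comparison below. IL8 array 2 also stood apart, since Krtdap and Trp63, genes of stratified squamous epithelium, were at 12.31 and 8.97 there, while no other array exceeded 2.62 for either gene. Other squamous markers were not confined to that array. Of the 14 with a probe set, 13 were at 4 or more on IL8 array 2, and 5 or 6 on each other array. Krt14 and Krt4 were above 4 on every array. IL8 array 1 had the lowest means of the fibroblast, smooth muscle and colon epithelium markers, at 6.98, 5.64 and 11.01. The other arrays had means of 7.58 to 8.05, 6.01 to 9.55 and 11.09 to 12.16. Over the tested probe sets, IL8 array 1 correlated with the control arrays at 0.949 to 0.955. For IL8 array 2 the values were 0.924 to 0.949, and for IL8 array 3 they were 0.971 to 0.987. All 15 colon epithelium markers reached 4 on at least 3 arrays, with Epcam at 13.82 to 13.95. Of the other markers with a probe set, that level was reached by 6 of 14 for squamous epithelium, 8 of 11 for fibroblasts, 6 of 8 for smooth muscle, 6 of 8 for endothelium, 4 of 9 for leukocytes, 2 of 5 for pancreas and 0 of 5 for stomach.

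In mammals the Hox genes lie in 4 clusters, a to d, and genes with the same paralogue number in different clusters descend from a common ancestral gene. Genes with low numbers act towards the head and genes with high numbers towards the tail, an order that follows their order on the chromosome. In the gut, the genes of paralogue groups 9 to 13 are known for their expression in the hindgut, from which the colon forms, and Hoxd13 and Hoxa13 are needed for the development of its end at the anus. In the adult, Hox expression is kept in both epithelium and gut mesenchyme, so an array of a whole tumour reads both.

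The promoters of 3 Hoxd genes are shown because Hoxd13 and Hoxd10 were the Hox genes that varied most between arrays, while Hoxd12, which lies between them, stayed near background. They are RefSeq sequences of build GRCm38.p6, from 250 bases before to 50 bases after the gene's start, on the + strand, with each CG dinucleotide in capitals. Hoxd13 is at chr2:74667975-74668274, Hoxd12 at chr2:74674763-74675062 and Hoxd10 at chr2:74691641-74691940.
Hoxd13: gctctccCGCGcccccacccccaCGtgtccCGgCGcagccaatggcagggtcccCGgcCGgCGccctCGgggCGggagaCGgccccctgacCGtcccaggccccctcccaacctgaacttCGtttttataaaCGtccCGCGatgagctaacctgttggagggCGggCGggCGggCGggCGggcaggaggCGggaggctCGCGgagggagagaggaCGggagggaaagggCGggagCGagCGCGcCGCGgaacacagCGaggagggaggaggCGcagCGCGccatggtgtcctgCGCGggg
Hoxd12: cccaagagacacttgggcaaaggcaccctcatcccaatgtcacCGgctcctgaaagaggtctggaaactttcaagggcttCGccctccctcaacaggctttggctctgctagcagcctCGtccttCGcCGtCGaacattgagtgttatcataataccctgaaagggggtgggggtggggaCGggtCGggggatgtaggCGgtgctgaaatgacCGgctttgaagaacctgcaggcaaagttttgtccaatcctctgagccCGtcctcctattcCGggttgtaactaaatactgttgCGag
Hoxd10: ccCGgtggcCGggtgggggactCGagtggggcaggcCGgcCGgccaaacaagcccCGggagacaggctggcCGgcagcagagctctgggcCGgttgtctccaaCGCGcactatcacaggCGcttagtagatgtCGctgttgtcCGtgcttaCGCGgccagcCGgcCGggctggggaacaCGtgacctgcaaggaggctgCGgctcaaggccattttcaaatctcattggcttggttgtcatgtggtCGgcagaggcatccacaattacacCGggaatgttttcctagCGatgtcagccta

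The Hoxd13 window holds 37 CG dinucleotides, the Hoxd12 window 13 and the Hoxd10 window 22, against a median of 7 over 32851 promoters of the same length in the table. The table had 24 promoters for 22 Hox genes, with a median of 14.5 CG dinucleotides. Among them Hoxa13, under 4 on every array, had 45, and Hoxa9, bright on every array, had 4. A link between CG count and expression was not tested. The motif TTTATNG, which Cdx and posterior Hox proteins can bind, was searched on both strands and was in 2 of these 24, those of Hoxb8 and Hoxd4, and in 10.9% of all promoters. The motif TGATTNAT, a Pbx and Hox site, was in 2 of the 24 and in 3.22% of all. The motif TATAAA, whose reverse strand can overlap TTTATNG, was in 4 of the 24, including Hoxd13, and in 13.6% of all. A match is a description of these letters only.

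Most Hox probe sets were low. Of the 48, 11 probe sets of 9 genes were at a log2 value of 4 or more on at least 3 of the 6 arrays, the level above which a probe set was tested. That is 22.9% of the Hox probe sets, against 42.9% of all probe sets other than the array's own controls. Another 7 probe sets reached 4 on 1 or 2 arrays. The remaining 30 lay between 1.46 and 3.93 on every array. The number at 4 or more was 14, 15 and 11 on IL8 arrays 1 to 3, against 9, 12 and 9 on control arrays 1 to 3. Over all probe sets other than array controls, the share at 4 or more ran from 41.7% on IL8 array 2 to 43.0% on control array 2. The Hoxa cluster had the same 7 probe sets above 4 on every array, so the changing counts come from the Hoxb and Hoxd clusters.

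**Figure D1:**
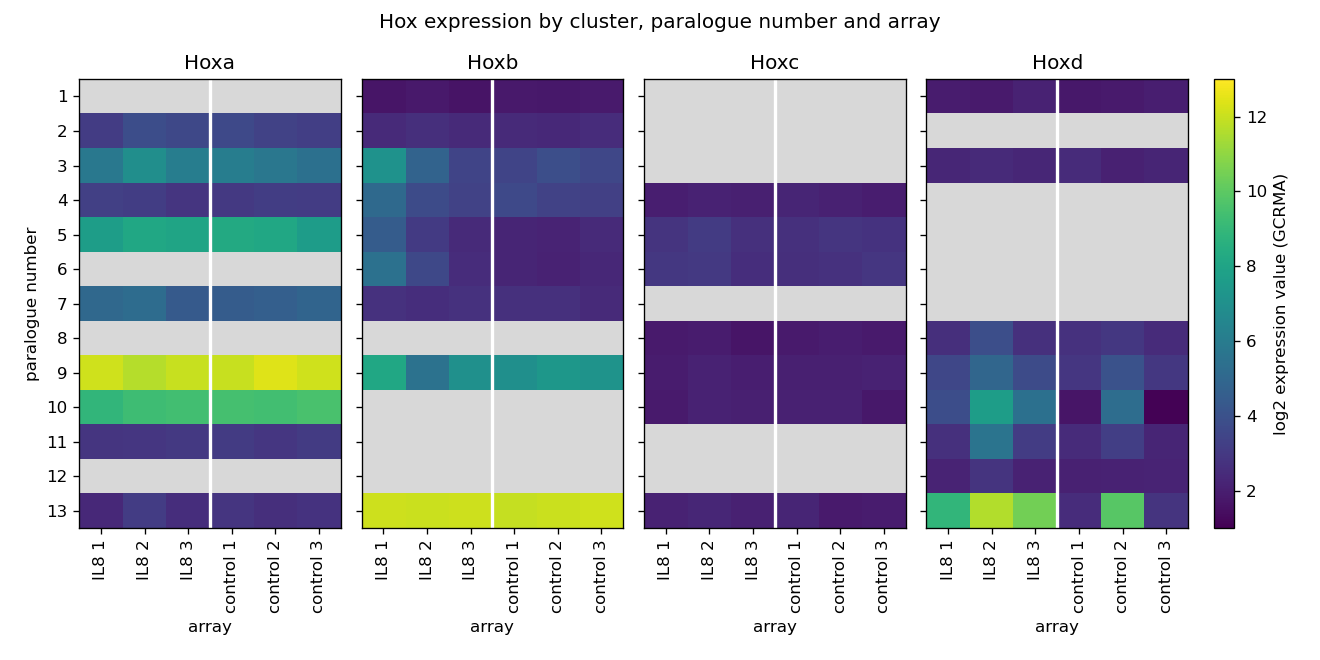
Each panel is a Hox cluster, each row a paralogue number (1 to 13) and each column an array, and colour gives the log2 expression value of the gene's brightest probe set. Grey marks a number with no gene or no probe set. Hoxa9, Hoxa10 and Hoxb13 were at 8.88 or more on all arrays, the Hoxc panel at 3.07 or less, and Hoxd13 was under 4 on control arrays 1 and 3 only. Colours compare arrays within a row, not amounts between genes.

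On every array 9 Hox probe sets of 7 genes, Hoxa3, Hoxa5, Hoxa7, Hoxa9, Hoxa10, Hoxb9 and Hoxb13, were at 4 or more. Hoxb13, the last gene of its cluster and a gene of the hindgut and prostate, was at 12.07, 12.05 and 12.08 on IL8 arrays 1 to 3, against 11.96, 12.04 and 12.13 on control arrays 1 to 3. The whole range over the 6 arrays was 0.18, and 98.3% of the 19310 tested probe sets had a wider one. The difference was 0.02 ± 0.13 (SE), with a 95% confidence interval of -0.30 to 0.35 and a limma adjusted p of 0.973.

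Hoxa9, a posterior gene also used by blood stem cells, was at 12.14, 11.69 and 11.98 on the IL8 arrays, against 11.99, 12.39 and 12.14 on the control arrays. The groups overlapped. A less bright probe set of Hoxa9 gave 6.77, 6.39 and 6.84 on the IL8 arrays, against 6.73, 7.84 and 7.13 on the control arrays. Both probe sets were lower on average in the IL8 group, by -0.24 and -0.57, and neither passed (limma adjusted p 0.815 and 0.806). The brighter probe set gave -0.11 without IL8 array 2, and the dimmer one -0.26 without control array 2.

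Hoxa10, the neighbour of Hoxa9, was at 8.88, 9.27 and 9.36 on the IL8 arrays, against 9.47, 9.37 and 9.54 on the control arrays. All 3 IL8 arrays lay below all 3 control arrays, but the nearest arrays, IL8 array 3 and control array 2, were 0.01 apart, and with each array centred on its median the groups overlapped. The difference was -0.29 ± 0.18 (SE) with a limma adjusted p of 0.806, and -0.15 without IL8 array 1. Hoxa10 was the 1 Hox probe set of the 11 tested whose groups did not overlap (9.09%), against 10.9% of all probe sets tested. A further Hoxa10 probe set stayed under 4 on every array.

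The remaining tested Hoxa genes were central or anterior ones. Hoxa5, which patterns gut and lung mesenchyme, was at 7.66, 8.15 and 7.99 on the IL8 arrays, against 8.29, 8.15 and 7.63 on the control arrays. Its other tested probe set, which can cross-hybridise with related sequences, was at 5.34, 5.73 and 5.44 on the IL8 arrays, against 5.45, 5.36 and 5.38 on the control arrays. The differences were -0.09 and 0.11, and the groups overlapped for both. Hoxa7 was at 5.05, 5.26 and 4.40 on the IL8 arrays, against 4.48, 4.65 and 4.85 on the control arrays. These values lie near the level used for the filter.

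Hoxa3, a gene of the pharyngeal region in the embryo, was at 5.83, 6.91 and 6.06 on the IL8 arrays, against 6.09, 5.74 and 5.41 on the control arrays. It was highest on IL8 array 2, and the difference was 0.52 with all arrays and 0.20 without that array (limma adjusted p 0.806 with all arrays). This Hoxa3 probe set is marked as able to read several transcripts, and the other 3 Hoxa3 probe sets stayed under 4 on every array. Hoxa2, Hoxa4, Hoxa11 and Hoxa13 also stayed under 4 on every array. The Hoxa13 probe set was at 2.37, 3.12 and 2.56 on the IL8 arrays, against 2.86, 2.64 and 2.74 on the control arrays. A low value does not show that the transcript was absent.

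The Hoxd cluster separated the arrays in another way than genotype. Hoxd13, the last gene of the cluster, was at 8.89, 11.62 and 10.44 on IL8 arrays 1 to 3, against 2.53, 9.90 and 2.81 on control arrays 1 to 3. It was therefore high on all IL8 arrays and on control array 2, and under 4 on control arrays 1 and 3, so that the groups overlapped. The Hoxd13 difference was 5.23 ± 2.03 (SE), with an unadjusted p of 0.0399 and a limma adjusted p of 0.806. Of the 11 tested Hox probe sets, Hoxd13 alone had an unadjusted p under 0.05, against 5.5% of all probe sets tested.

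The size of that difference depended on the control arrays. Without control array 2 the Hoxd13 difference was 7.64, and without control array 1 it was 3.96. The values of control arrays 1 and 3 lie at background, and raising all values below 4 to 4 gave a difference of 4.35. The adjusted p ran from 0.481 to 0.961 over 14 alternatives. In samples of whole tissue, fewer cells of a type and less RNA per cell cannot be told apart.

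A second Hoxd13 probe set was at 3.11, 4.32 and 3.19 on the IL8 arrays, against 3.09, 3.23 and 2.93 on the control arrays. Only IL8 array 2, where the brighter probe set was also highest, reached 4. The dim probe set did not show the gap between control array 2 and the other control arrays that the bright one did. Its values lie near background, where such a gap may not show, and control array 2 was still its highest control array. The on and off pattern of Hoxd13 thus rests on 1 probe set.

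Hoxd10, which lies 3 genes away in the same cluster, was highest on the same 4 arrays as Hoxd13. It was at 3.84, 7.67 and 5.41 on IL8 arrays 1 to 3, against 1.67, 5.28 and 1.09 on control arrays 1 to 3. The 4 highest arrays came in the same order for both genes, namely IL8 array 2, IL8 array 3, control array 2 and IL8 array 1. On IL8 array 1 Hoxd10 was itself under 4. Control arrays 1 and 3, at background for both genes, changed places. The Hoxd10 difference was 2.96 ± 1.38 (SE) with a limma adjusted p of 0.806, and 1.26 once values below 4 were raised to 4.

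Hoxd9 and Hoxd11 were dimmer and were not tested. Hoxd9 was at 3.54, 4.97 and 3.76 on the IL8 arrays, against 2.88, 4.03 and 2.93 on the control arrays. Hoxd11 was at 2.67, 5.60 and 3.14 on the IL8 arrays, against 2.47, 3.25 and 2.24 on the control arrays. In both genes IL8 array 2 was highest, control array 2 was next, and control arrays 1 and 3 were lowest, though most of these values lie at background.

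Hoxd12 stayed between 2.10 and 2.80 on all arrays. Hoxd8, on the other side of Hoxd9, reached 3.87 on IL8 array 2 and at most 2.96 elsewhere. Hoxd1 and Hoxd3, the anterior end of the cluster, were at 2.46 or less on every array. Values above 4 in this cluster were thus limited to Hoxd9, Hoxd10, Hoxd11 and Hoxd13 among the 8 genes with a probe set.

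**Figure D2:**
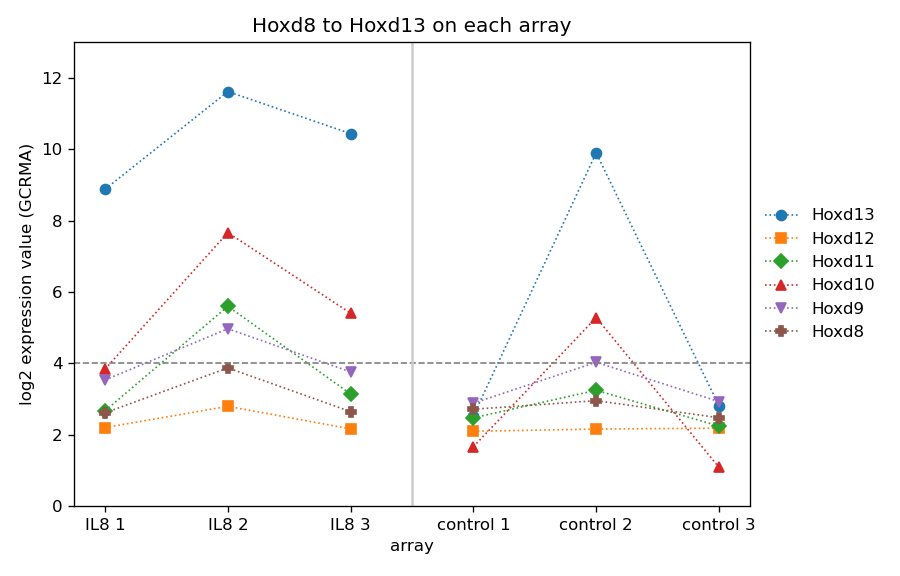
The log2 expression value of the brightest probe set of Hoxd8 to Hoxd13 is plotted for each array, IL8 transgenic on the left and control on the right, with 1 point per array, dotted lines joining the points of a gene and a dashed line at 4. Hoxd13 was at 8.89 or more on 4 arrays and at 2.81 or less on control arrays 1 and 3. Hoxd10 kept the same order on the 4 highest arrays.

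The Hoxd13 values were set beside the markers of other cell types. The 8 smooth muscle markers averaged 5.64, 9.55 and 8.40 on IL8 arrays 1 to 3, against 6.85, 6.23 and 6.01 on control arrays 1 to 3. The part of smooth muscle in the Hoxd13 values was not tested. The 14 squamous markers averaged 4.23, 9.50 and 4.51 on the IL8 arrays, against 4.27, 4.83 and 4.13 on the control arrays, with 5, 13 and 6 of them at 4 or more on the IL8 arrays, against 6, 6 and 5 on the control arrays. On IL8 array 2 the squamous markers and the highest Hoxd values occurred together, and the part of squamous tissue in those values was not tested. Hoxd13 was at 10.44 on IL8 array 3, where Krtdap was at 2.22 and Trp63 at 1.98. The 6 squamous markers at 4 or more on that array included Krt14 at 7.21, Krt6a at 6.96 and Krt4 at 6.30.

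Hoxb3, Hoxb4, Hoxb5 and Hoxb6 were above 4 on IL8 array 1. Hoxb3 was at 7.13, 4.81 and 3.46 on IL8 arrays 1 to 3, against 3.46, 3.90 and 3.57 on control arrays 1 to 3. Hoxb4 was at 5.09, 3.74 and 3.36 on the IL8 arrays, against 3.67, 3.39 and 3.29 on the control arrays. Both genes act in the hindbrain and in blood stem cells, and both were highest on IL8 array 1.

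Hoxb5, which is needed by the nerve cells of the gut wall, was at 4.50, 3.04 and 2.44 on the IL8 arrays, against 2.25, 2.21 and 2.44 on the control arrays. Hoxb6 was at 5.46, 3.62 and 2.51 on the IL8 arrays, against 2.23, 2.13 and 2.32 on the control arrays. IL8 array 1 was highest and IL8 array 2 next for Hoxb3, Hoxb4, Hoxb5 and Hoxb6, which are neighbours in the cluster. For Hoxb4, IL8 array 2 (3.74) lay close to control array 1 (3.67), and both were under 4. None of the 4 was tested, since each reached 4 on fewer than 3 arrays, and IL8 array 3 lay within or close to the control range in each.

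Dimmer probe sets of Hoxb3 and Hoxb4, which stayed under 4, were also highest on IL8 array 1, at 3.27 and 3.52, against at most 2.55 and 2.62 on the other 5 arrays. IL8 array 2 was next for the dimmer Hoxb3 probe set, at 2.55, but lowest for that of Hoxb4, at 2.42. Hoxb7, the next gene, was between 2.44 and 2.70 on all arrays. A probe set shared by Hoxb7 and Hoxb8, outside the members, was at 3.01 on IL8 array 1 and at 1.90 to 2.06 on the other arrays. Hoxb1 and Hoxb2 were at 2.62 or less throughout. The leukocyte markers, given here because Hoxb3 and Hoxb4 are also known from blood cells, averaged 5.46, 5.23 and 5.77 on the IL8 arrays, against 5.83, 6.13 and 5.98 on the control arrays. Of the 9 leukocyte markers with a probe set 4 reached 4 on at least 3 arrays, and the part of leukocytes in the Hoxb values was not tested. Fibroblast, smooth muscle and colon epithelium markers averaged lowest on IL8 array 1, and their part in the Hoxb values was not tested.

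Hoxb9, a posterior gene of the cluster, was at 8.16, 5.52 and 7.03 on the IL8 arrays, against 6.97, 7.34 and 7.15 on the control arrays. IL8 array 1 was above and IL8 array 2 below every control array, so the difference of -0.26 ± 0.63 (SE, limma adjusted p 0.936) averages values on both sides. It was 0.44 without IL8 array 2 and -0.88 without IL8 array 1. The SD over 3 arrays was 1.32 in the IL8 group and 0.19 in the control group.

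**Figure D3:**
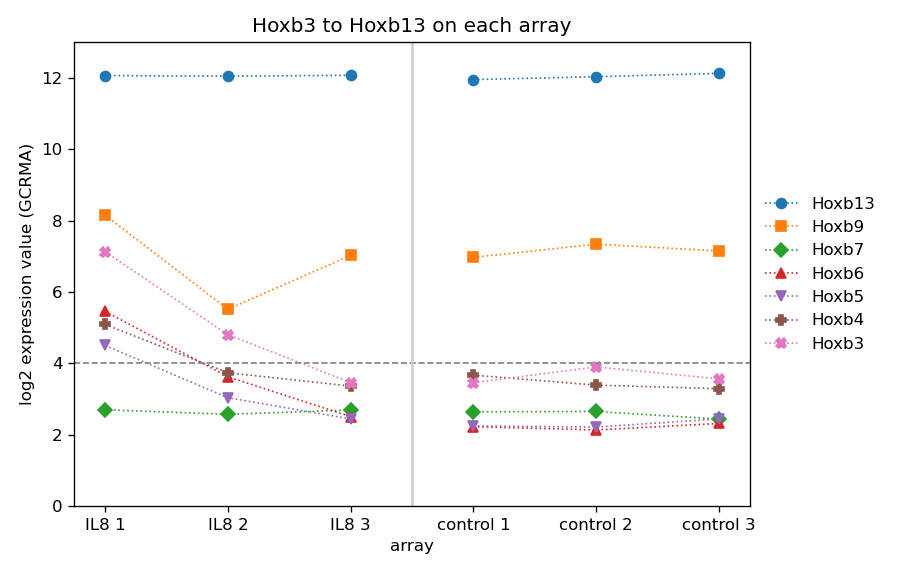
The log2 expression value of the brightest probe set of 7 Hoxb genes is plotted for each array, IL8 transgenic on the left and control on the right, with dotted lines joining the points of a gene and a dashed line at 4. Hoxb13 lay between 11.96 and 12.13 on all arrays, while Hoxb3 to Hoxb6 were above 4 on IL8 array 1.

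The Hoxc cluster was low in every tumour. Its 11 probe sets for 7 genes, among them Hoxc8, Hoxc9, Hoxc10 and Hoxc13, lay between 1.46 and 3.07 on all arrays. Probe sets at this level do not show that the transcripts were absent.

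Among the 11 tested Hox probe sets, 0 passed the limma test at an adjusted p of 0.05, against 0.057% of all 19310 tested. The smallest Hox adjusted p was 0.806, and 1 probe set, that of Hoxd13, had an unadjusted p under 0.05. The differences were above 0 for 6 and below 0 for 5 probe sets, with a median of 0.02, beside a median of -0.02 over all probe sets tested. The 95% confidence intervals remained wide for the genes that varied most, from 0.33 to 10.14 for Hoxd13 and from -0.37 to 6.29 for Hoxd10, so a missed threshold does not show that the groups were alike. With 3 arrays per group the number of arrays limits the precision.

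**Figure D4:**
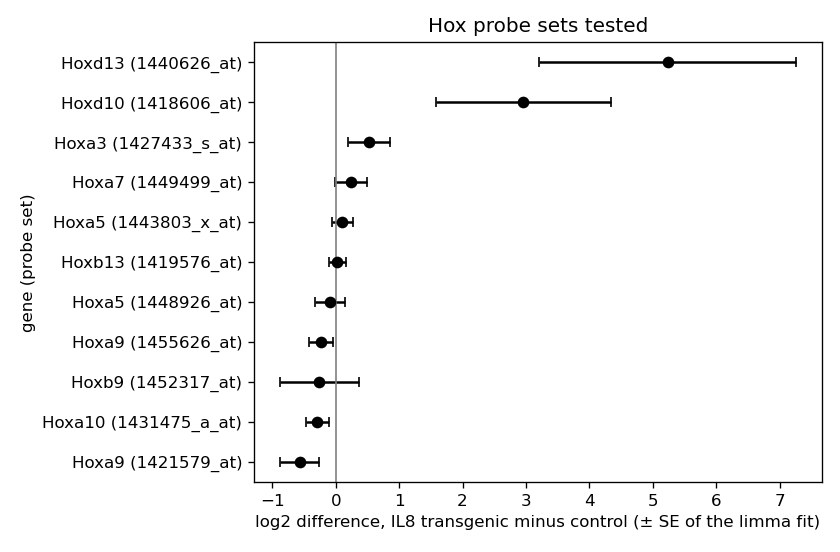
Points give the log2 difference, IL8 transgenic minus control, for the 11 tested Hox probe sets, and bars give the standard error of the limma fit. Hoxd13 (5.23) and Hoxd10 (2.96) had the largest differences and the widest bars among the 11, and the remaining points lay between -0.57 and 0.52.

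Genes beside the clusters were read in the same way. Evx2, a homeobox gene next to Hoxd13, was at 1.44 to 1.68 on all IL8 and control arrays, with no Hoxd13 pattern. Its values lie at background, where such a pattern may not show. Lnpk, the gene beyond it, was at 7.76, 8.54 and 7.28 on the IL8 arrays, against 7.14, 7.55 and 7.13 on the control arrays, and it was lowest on control arrays 1 and 3. Mtx2, a mitochondrial gene beyond Hoxd1, was at 9.74, 9.90 and 9.94 on the IL8 arrays, against 9.86, 9.81 and 10.02 on the control arrays.

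Evx1, the homeobox gene next to Hoxa13, was at 7.86, 5.87 and 7.73 on the IL8 arrays, against 7.95, 8.24 and 8.40 on the control arrays. All IL8 arrays were below all control arrays, and the difference was -1.04 ± 0.54 (SE, limma adjusted p 0.806). It was -0.40 without IL8 array 2. Skap2 and Snx10, on the other side of the Hoxa cluster, differed by -0.07 and -0.51, and Hibadh, beyond Evx1, by -0.10. The tested genes beside the Hoxb and Hoxc clusters were Snx11, Atp5g2, Smug1 and Cbx5, with differences of -0.17 to 0.08. None of the tested neighbours passed limma, at adjusted p from 0.806 to 0.968.

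Hox proteins bind DNA with cofactors of the Meis, Pbx and Pknox families. Of 9 such genes 5 were tested, 0 passed, 3 were above and 2 below 0. In this list and the lists that follow, an unadjusted limma p under 0.05 was reached by Kdm6a, Tbx4 and Nkx2-3 only. Over all probe sets tested the share was 5.5%. Tbx4 and Nkx2-3 passed the filter only through the control arrays, so the filter fixed their order and their p is not evidence of a difference. Meis1 was at 3.49, 7.56 and 4.34 on the IL8 arrays, against 4.32, 4.13 and 4.18 on the control arrays. It was thus high on IL8 array 2 alone, and the difference of 0.92 became -0.30 without that array (limma adjusted p 0.847 with all arrays). Meis2, Pbx2 and Pknox1 differed by 0.08, -0.06 and -0.10, and each of these turned sign without at least 1 of the arrays.

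Of the caudal and ParaHox genes, relatives of Hox genes that set intestinal identity, Cdx1 and Cdx2 were tested and the other 4 were under 4 on every array. Cdx1 was at 8.55, 10.27 and 9.05 on the IL8 arrays, against 8.77 on control array 1 and 8.24 or less on control arrays 2 and 3, a difference of 0.92 (limma adjusted p 0.806) that was 0.43 without IL8 array 2. Cdx2 was at 7.07, 7.61 and 7.55 on the IL8 arrays, against 7.92, 6.56 and 7.03 on the control arrays. Cdx2 differed by 0.24 (limma adjusted p 0.894), and by -0.06 without control array 2.

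Retinoic acid switches on Hox genes in the embryo. Of 18 genes of its pathway 8 were tested, with 4 above and 4 below 0, and 0 passed. The receptor gene Rarb was at 6.40, 2.69 and 7.73 on the IL8 arrays, against 6.31, 8.53 and 8.53 on the control arrays, and the retinol uptake gene Stra6 at 6.31, 3.20 and 6.78 on the IL8 arrays, against 6.20, 7.08 and 7.13 on the control arrays. Both were lowest on IL8 array 2. Without it the difference was -0.72 for Rarb and -0.26 for Stra6, against -2.18 and -1.37 with all arrays. Aldh1a3, an enzyme that makes retinoic acid, differed by 0.79 (0.43 without IL8 array 1 and 1.39 without IL8 array 3), and the partner receptor gene Rxrb by 0.20, with all IL8 arrays above all control arrays (limma adjusted p 0.806 for all 4 genes). The nearest Rxrb arrays, IL8 array 3 at 8.325 and control array 2 at 8.317, lay close together. All IL8 arrays lay above all control arrays for 4.61% of all probe sets tested.

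Polycomb proteins keep Hox genes silent and Trithorax proteins keep them active. Of 21 such genes 17 were tested, with 4 above and 13 below 0, beside 46.8% above 0 over all probe sets tested, and 0 passed. The median difference over the tested members was -0.13. It was -0.016 without IL8 array 2 and -0.26 without IL8 array 1. Kdm6a, an X-linked gene for a demethylase that removes the Polycomb mark, was at 9.06, 8.56 and 8.84 on the IL8 arrays, against 7.93, 7.98 and 8.01 on the control arrays, with Xist high on the same IL8 arrays. Its difference was 0.85 ± 0.17 (SE, limma adjusted p 0.806). Ezh2, the methyltransferase that sets the mark, was at 10.12, 9.65 and 10.32 on the IL8 arrays, against 10.35, 10.73 and 10.60 on the control arrays, a difference of -0.53, and its relative Ezh1 differed by 0.50. Cbx2, a Polycomb reader of the mark, differed by -0.69, and by -0.27 without IL8 array 2. Ezh2, Ezh1 and Cbx2 each had a limma adjusted p of 0.806, and Ezh1 differed by 0.27 without IL8 array 1.

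Of 19 other genes that mark position along the gut 8 were tested, with 1 above and 7 below 0, and 0 passed. The median difference was -0.81 over these 8, -0.36 without IL8 array 2 and -0.34 with values below 4 raised to 4. With no filter on low values it was -0.02, over all 17 members with a probe set. Tbx4, a gene of hindlimb and foregut mesenchyme, was at 3.47, 2.42 and 3.23 on the IL8 arrays, against 4.63, 4.48 and 4.01 on the control arrays, so every IL8 array was under 4. The deposited values gave a difference of -1.33 (limma adjusted p 0.806), and raising values below 4 to 4 gave -0.37. Nkx2-3, a gene of gut mesenchyme, differed by -0.38 and also lay under 4 on every IL8 array, with a difference of -0.15 after the same change. Gata5, a zinc finger gene of the endoderm, differed by -0.58, and by -0.24 without IL8 array 1. Tbx4 and Nkx2-3 passed the filter only through the control arrays, so their order was fixed by the filter. For Gata5 and Evx1 all IL8 arrays also lay below all control arrays, as they did for 6.31% of all probe sets tested. Gata5 and Nkx2-3 values lay near 4 in both groups.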

How the data were processed

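Per the submitters' processing notes, the authors used GCRMA, which corrects background and summarises probes, and the deposited values are on a log2 scale. Its version and any genome build are not stated in these sources. No further normalization was applied, and array medians ran from 3.31 to 3.36. Genes were named from the platform table (34958 of 45101 probe sets had 1 symbol, 932 several and 9211 none). Entrez identifiers of all 48 Hox probe sets were found in RefSeq (GRCm38.p6), which was used for names, for neighbours and for promoter sequences.

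Probe sets at 4 or more on at least 3 arrays were tested, with 64 array controls left out, which kept 19310. The test was limma's lmFit and eBayes (version 3.58.1, R 4.3.3; IL8 transgenic minus control, Benjamini-Hochberg adjustment over all 19310, threshold 0.05, two-sided). The fit was tested on simulated data. Where a gene has several tested probe sets, lists use the brightest.

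Hox members and all lists were chosen with earlier results of these data known. Per-array values are given for every Hox probe set that reached 4 on at least 1 array. Per list, the 4 tested members of smallest unadjusted p (fewer where fewer were tested) are named, and for markers Krtdap, Trp63 and Epcam. The squamous markers Krt14, Krt4 and Krt6a were added after values were seen. Genes beside the clusters were added after values were seen. Alternatives were no filter, a filter at 6, quantile normalization, median centring, a trended robust prior, array weights, a replicate block, values under 4 set to 4, the mean of a gene's probe sets and leaving out each array.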

Additional observations from a re-analysis of the deposited data

Results flagged for a closer look

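Antisense probe sets of the Hox clusters lie outside the members and were in no comparison, and 2 of them were above 4 and above the highest control value on an IL8 array. Hoxb5os, antisense to Hoxb5, was at 2.47, 5.37 and 3.38 on IL8 arrays 1 to 3, against 2.53, 2.22 and 2.25 on control arrays 1 to 3. It was highest on IL8 array 2, while Hoxb5 itself was highest on IL8 array 1. A probe set of Hoxa11os, antisense to Hoxa11, was at 6.67, 9.35 and 8.19 on the IL8 arrays, against 8.58, 8.31 and 8.28 on the control arrays. It was above every control array on IL8 array 2 alone and below them on IL8 arrays 1 and 3, while Hoxa11 stayed under 4 on every array.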

How the results depend on the processing

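The count of Hox probe sets passing with limma was 0 in all 14 alternatives run on the fit. Over all probe sets, the count of 11 ran from 3 to 7 with 1 array left out and from 8 to 12 otherwise. The count of Hox probe sets whose groups did not overlap was 1, and it was 3 with no filter, 0 with each array centred on its median, and 1 to 4 with 1 array left out. The median Hox difference of 0.02 became -0.16 with the filter at 6, which tests fewer probe sets, and ran from -0.048 to 0.069 with 1 array left out. Signs turned for small differences when 1 array was left out, over ranges of -0.28 to 0.047 for Hoxa5, -0.0065 to 0.19 for its cross-hybridising probe set, -0.019 to 0.069 for Hoxb13, -0.88 to 0.44 for Hoxb9, -0.30 to 1.74 for Meis1, -0.22 to 0.43 for Meis2, -0.11 to 0.038 for Pbx2, -0.30 to 0.038 for Pknox1 and -0.062 to 0.62 for Cdx2. With array quality weights the difference was -0.0033 for Aldh1a3, 0.025 for Pbx2 and 0.039 for Pknox1. The cause of these turns was not tested. Hoxd13 and Hoxd10 kept their direction in every alternative that tested them. Taking the mean of a gene's probe sets left 8 rather than 9 Hox genes at 4 on at least 3 arrays, without Hoxa3. With the replicate number as a block 8 probe sets passed and 0 of them were Hox. The sample titles share only a number, and deviations of same-numbered arrays correlated at -0.27, -0.28 and -0.05. With 3 arrays per group these correlations cannot show whether same-numbered arrays shared a batch. Values under 4 lie near background, which limits the Hoxc genes and most anterior Hox genes.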

Other observations

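The on and off pattern of Hoxd13 was looked for in all 45037 probe sets other than array controls, with limits set after its values had been seen. A probe set had to be under 4 on control arrays 1 and 3 and at 6 or more on the other 4 arrays. It was met by 1 probe set, that of Hoxd13, whose own values set the pattern, and the opposite pattern by 0. Hoxd10 fell outside the limit of 6, at 3.84 and 5.41 on IL8 arrays 1 and 3 and 5.28 on control array 2. The range of Hoxd13 over the 6 arrays ranked 6 among 19310 tested probe sets and that of Hoxd10 ranked 39.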
